A study of Mus musculus with 30 samples.

Results

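Bisphenol S (BPS) and its positional isomer 2,4-BPS were compared directly with each other in the livers of female (F) offspring whose dams had taken in either compound. Both molecules are pairs of phenol rings linked through a sulfone, and in 2,4-BPS a single hydroxyl group has moved from the position opposite the sulfone to the position beside it. The comparison used every library labelled female with either exposure, 6 of the 30 libraries of the series, 3 for 2,4-BPS and 3 for BPS. Dams of ICR mice, an outbred stock, were dosed by way of their drinking water over pregnancy and nursing, about 40 days. The stated dose was the same for both isomers, 5 µg/kg body weight daily from water with 10 ng/mL of compound and 0.001% ethanol. Control dams, whose female offspring gave 3 further libraries set beside the isomers here, received the ethanol alone. The same pair of exposures in male (M) offspring, 3 libraries each, was used to compare the sexes. Each group had 8 dams, and livers were taken from offspring at 10 weeks, so the animals were examined long after their mothers' exposure had ended. The labels do not tie livers to dams, so whether libraries share a litter is unknown. P-values measure only the spread between livers within groups. That spread was estimated over all groups of a fit, including offspring of dams given BPSIP or oestradiol (E2) at the same stated dose. For the female contrasts it came from all 15 female libraries.

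The liver burns and stores fat, makes glucose and cholesterol, secretes most plasma proteins and clears foreign compounds. In mice, fatty acid breakdown is driven by the nuclear receptor PPAR alpha, sterol synthesis by SREBP2, and drug clearance by the receptors CAR (Nr1i3) and PXR (Nr1i2). Cytokines turn on acute phase proteins in hepatocytes, interferon gamma turns on GTPases and antigen presentation genes, and misfolded protein turns on chaperones through heat shock factors. Kupffer cells, the resident macrophages of the liver, present antigen and take up debris.

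The 6 libraries held 33360839 to 37633865 counts and the 30 libraries 29711711 to 37719069, so depth was similar throughout. The livers carried hepatocyte markers at full level, with Alb at 98689 to 110787 CPM (counts scaled to a common library size by the trimmed mean of M values, TMM) in 2,4-BPS livers and at 88639 to 100613 CPM in BPS livers. Y-linked genes summed to at most 0.464 CPM in the 2,4-BPS and at most 0.473 CPM in the BPS libraries, as their female label requires. Replicate 1 of 2,4-BPS stood apart in skeletal muscle markers, whose CPM summed to 14.3 to 59.1 over the 2,4-BPS, 3.41 to 16.1 over the BPS and 3.9 to 13.7 over the control libraries. Of the 13 muscle markers tested, 6 were called higher in 2,4-BPS livers, and without that library 1 was. Of the pancreatic acinar markers, Try4, Try5, Pnlip, Cel and Reg1 were at 0 counts, and 3 were tested. Cela1, an elastase gene, was the member called, at 36.7 to 44.4 CPM in 2,4-BPS livers, against 29.2 to 30.7 CPM in BPS livers and 43.4 to 49 CPM in control livers (0.42 ± 0.08, adjusted p = 0.000179). The part of these markers in the results below was not tested.

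Counts were tested with edgeR's quasi-likelihood test, and adjusted p stands for its Benjamini-Hochberg value over 13874 genes. Fold changes are 2,4-BPS over BPS, on the log2 scale with their standard error. A single pair of compounds was compared in each sex. In females, 1420 genes were higher with 2,4-BPS than with BPS (10.2% of those tested) and 1281 were lower (9.23%). Most differences were small, since 308 called genes (2.22% of those tested) differed by a log2 fold change of at least 1, 201 of them upward and 107 downward. The median log2 fold change of all genes was 0.004. These shares and this median are the background for the gene groups below.

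**Figure D1:**
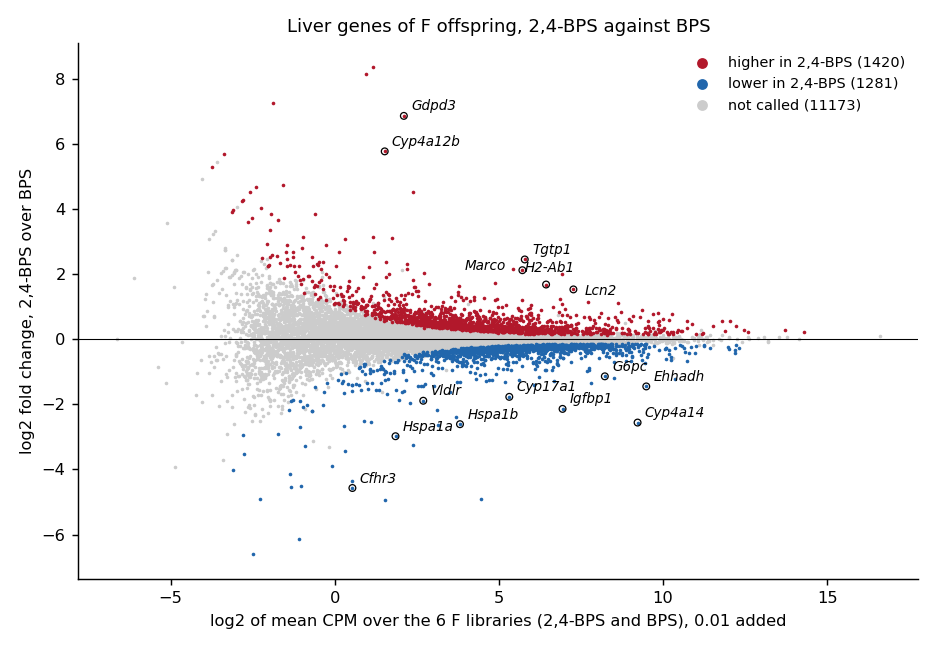
Each point is a gene tested in F livers, with log2 of its mean CPM over the 6 libraries of both isomers on the x axis and its log2 fold change, 2,4-BPS over BPS, on the y axis. Red points are the 1420 genes called higher in 2,4-BPS livers, blue points the 1281 called lower, and circles mark named genes such as Cyp4a14 at −2.56 and Tgtp1 at 2.45.

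The extremes came from many parts of liver biology. Gdpd3, which encodes a lysophospholipase D, had 7.99, 7.24 and 10.3 CPM in 2,4-BPS livers, against 0.111, 0.0312 and 0.063 CPM in BPS livers and 0.136, 0.327 and 0.288 CPM in control livers (6.86 ± 0.57, adjusted p = 2.27e-17). Cyp4a12b, a fatty acid hydroxylase gene biased to males in mouse liver, had 5.62, 6.7 and 4.58 CPM in 2,4-BPS livers, against 0.166, 0.0312 and 0.0945 CPM in BPS livers (5.77 ± 0.51, adjusted p = 3.17e-16). Control livers, at 12.7 to 17.2 CPM, lay above both isomers for this gene. In the other direction, Cfhr3, a complement factor H-related gene, stood at 0.0546, 0.239 and 0.0555 CPM in 2,4-BPS livers, against 2.61, 2.94 and 2.77 CPM in BPS livers (−4.57 ± 0.43, adjusted p = 3.47e-13). H2-Q2, a non-classical MHC class I gene, had 0.777 to 1.23 CPM in 2,4-BPS livers, against 8.27 to 10.6 CPM in BPS livers (−3.24 ± 0.21, adjusted p = 2.55e-14). The H2 and Cyp4a families hold close copies, between which the counting could have split reads.

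A pair of genes was present with 2,4-BPS and all but missing with BPS. Trim12a, a tripartite motif gene, had 411 counts over the 3 2,4-BPS libraries, against 1 count over the 3 BPS libraries, a ratio of 386 with a 95% counting interval of 69 to 15302. It averaged 1.13 CPM in control livers, below 2,4-BPS and above BPS livers. Among the other female groups it averaged 6.64 CPM with BPSIP and 0 CPM with E2, so its level also swung between groups outside this pair. LOC118568152, a gene model named only by its identifier, had 473 counts with 2,4-BPS, against 1 with BPS (ratio 445, interval 79.4 to 17605). Unlike Trim12a, it was low in the other female groups, averaging 0.00908 CPM in controls, 0 CPM with BPSIP and 0.123 CPM with E2. These intervals cover counting error only.

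Much of the transcriptome could be bounded as close. For 7554 genes (54.4%) the 95% interval of the difference lay within 0.5 of 0 on the log2 scale, and for 10809 (77.9%) within 1. Of the genes within 0.5 of 0, 1042 were nevertheless called, with differences that were small but large beside their standard error. Among a panel of 24 liver regulators and enzymes, the receptor genes Nr1i3 and Ppara and the dioxin-inducible P450 gene Cyp1a2 were not called. Dbp, given with the circadian genes below, was not called either. Nr1i3 had 244, 276 and 244 CPM in 2,4-BPS livers, against 245, 258 and 248 CPM in BPS livers, an interval of −0.09 to 0.14. Ppara had 380, 386 and 355 CPM in 2,4-BPS livers, against 340, 369 and 381 CPM in BPS livers (−0.11 to 0.19), and Cyp1a2 ran from −0.12 to 0.10. For Nr1i3, Ppara and Cyp1a2 the groups overlapped and the interval leaves room for a shift of well under 0.5 either way.

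**Figure D2:**
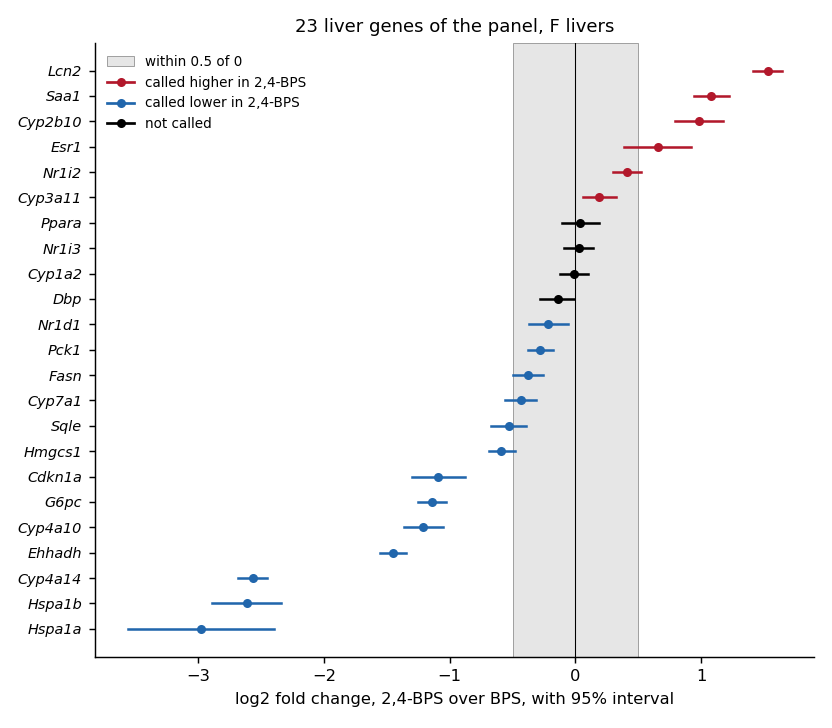
Log2 fold changes of 23 of the panel genes in F livers, 2,4-BPS over BPS, with 95% intervals as lines, and grey marking the span within 0.5 of 0. Lcn2 lies highest at 1.53 and Hspa1a lowest at −2.98, while Ppara, Nr1i3, Cyp1a2 and Dbp were not called.

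Transcripts for fatty acid breakdown were mostly lower with 2,4-BPS. Of 40 listed PPAR alpha targets and fatty acid oxidation genes, 30 fell and 1 rose (median −0.25). Cyp4a14, an omega-hydroxylase and one of the most responsive PPAR alpha targets in mice, had 172, 184 and 163 CPM in 2,4-BPS livers, against 999, 1009 and 1061 CPM in BPS livers and 236, 233 and 234 CPM in control livers. The groups were far apart, 5.91-fold, with 2,4-BPS livers somewhat below control and BPS livers well above it (−2.56 ± 0.06, adjusted p = 2.21e-27). Ehhadh, the bifunctional enzyme of peroxisomal beta-oxidation, had 387, 383 and 385 CPM in 2,4-BPS livers, against 1037, 1045 and 1075 CPM in BPS livers and 1110, 1107 and 1093 CPM in control livers (−1.45 ± 0.05, adjusted p = 1.26e-22). For Ehhadh it was the 2,4-BPS livers that left the control level, whose own log2 fold changes over control were −1.52 for 2,4-BPS and −0.07 for BPS. Cyp4a10, another omega-hydroxylase, had 810, 853 and 746 CPM in 2,4-BPS livers, against 1731, 1941 and 1881 CPM in BPS livers and 844 to 963 CPM in control livers (−1.21 ± 0.07, adjusted p = 8.26e-12). The member that rose was Cyp4a31 (0.81 ± 0.11, adjusted p = 3.08e-07), another Cyp4a copy, named here after its values were seen. The gene of the receptor itself, Ppara, was among the 9 that were not called.

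Fat synthesis and storage genes moved the same way, though less. Of 25 genes of fatty acid and triglyceride synthesis, 11 fell and 4 rose (median −0.10), led by Me1, the malic enzyme that supplies NADPH, with 108, 107 and 119 CPM in 2,4-BPS livers, against 183, 186 and 174 CPM in BPS livers (−0.70 ± 0.06, adjusted p = 3.56e-12). Scd1, the stearoyl-CoA desaturase, had 1289 to 1327 CPM in 2,4-BPS livers, against 1896 to 2196 CPM in BPS livers (−0.66 ± 0.06). Elovl5, an elongase of polyunsaturated fatty acids, and Fasn, the fatty acid synthase, fell by 0.55 and 0.38 on the log2 scale. Of 17 lipid droplet protein genes, 6 fell and 3 rose. Plin2, a droplet coat protein of hepatocytes, fell by 0.66, Hsd17b13, a droplet-bound dehydrogenase, by 0.56, and G0s2, an inhibitor of the triglyceride lipase ATGL, by 0.70, while Pnpla2, which encodes ATGL itself, rose by 0.39.

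Of 25 listed cholesterol synthesis genes, 14 fell, 1 rose and 10 were not called (median −0.21). Hmgcs1, the HMG-CoA synthase that opens the pathway, had 213, 208 and 213 CPM in 2,4-BPS livers, against 304, 327 and 321 CPM in BPS livers and 133, 130 and 129 CPM in control livers. All 3 groups were separate, with 2,4-BPS livers between control and BPS (−0.59 ± 0.05, adjusted p = 5.45e-11). Sqle, the squalene epoxidase, and Msmo1, a sterol methyl oxidase, fell by 0.53 and 0.44. Among lipoprotein genes, 6 of 29 rose and 5 fell. Apoa4, an apolipoprotein made when fat is exported, had 922 to 983 CPM in 2,4-BPS livers, against 1442 to 1528 CPM in BPS livers (−0.64 ± 0.06), and Angptl8, an inhibitor of lipoprotein lipase, fell by 0.81. The lipases moved the other way, with Lipc, the hepatic lipase, up by 0.45 and Lpl, lipoprotein lipase, up by 0.69.

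Of 30 genes for insulin signalling and glucose metabolism, 11 fell with 2,4-BPS, 2 rose and 17 were not called (median −0.10). Igfbp1, an insulin-repressed binding protein of insulin-like growth factors, had 42.7, 46.2 and 47.2 CPM in 2,4-BPS livers, against 196, 201 and 203 CPM in BPS livers and 82.9, 78.6 and 76.3 CPM in control livers. The isomers lay on opposite sides of control, 4.41-fold apart (−2.14 ± 0.06, adjusted p = 4.17e-25). G6pc, the glucose-6-phosphatase that releases glucose, had 190, 191 and 179 CPM in 2,4-BPS livers, against 384, 427 and 423 CPM in BPS livers, and control livers at 367 to 387 CPM sat with BPS (−1.14 ± 0.06, adjusted p = 1.09e-17). Ppp1r3c, a glycogen-targeting subunit of protein phosphatase 1, fell by 1.25 and Pck1, the carboxykinase of gluconeogenesis, by 0.28. Amino acid catabolism was mixed, with 7 of 36 genes up and 9 down. Oat, ornithine aminotransferase, fell by 0.66 and Tat, tyrosine aminotransferase, by 0.41, whereas Prodh, proline dehydrogenase, rose by 0.67 and Cps1, the first enzyme of the urea cycle, by 0.41.

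Mitochondrial respiration genes fell by little but often. Of 43 nuclear oxidative phosphorylation subunits, 28 fell and none rose (median −0.20), and 42 of them had intervals within 0.5 of 0. Cycs, cytochrome c, had 63.5 to 68.5 CPM in 2,4-BPS livers, against 75.7 to 89.5 CPM in BPS livers (−0.32 ± 0.06, adjusted p = 0.000175), and Sdhc, a subunit of succinate dehydrogenase, fell by 0.24. This count leaned on single livers, being 10 without replicate 1 of 2,4-BPS and 12 without replicate 2 of BPS. Cytosolic ribosomal protein genes fell in 11 of 53 cases and rose in 2, and 5 to 17 fell with single livers left out. The members that rose were Rps18 and Rpl30. Rps18 stood at 138, 181 and 168 CPM in 2,4-BPS livers, against 56.9, 74.7 and 73.1 CPM in BPS livers (1.25 ± 0.14, adjusted p = 4.21e-05), and Rpl30 at 161, 188 and 175 CPM in 2,4-BPS livers, against 128, 147 and 147 CPM in BPS livers (0.31 ± 0.06, adjusted p = 0.000494).

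**Figure D3:**
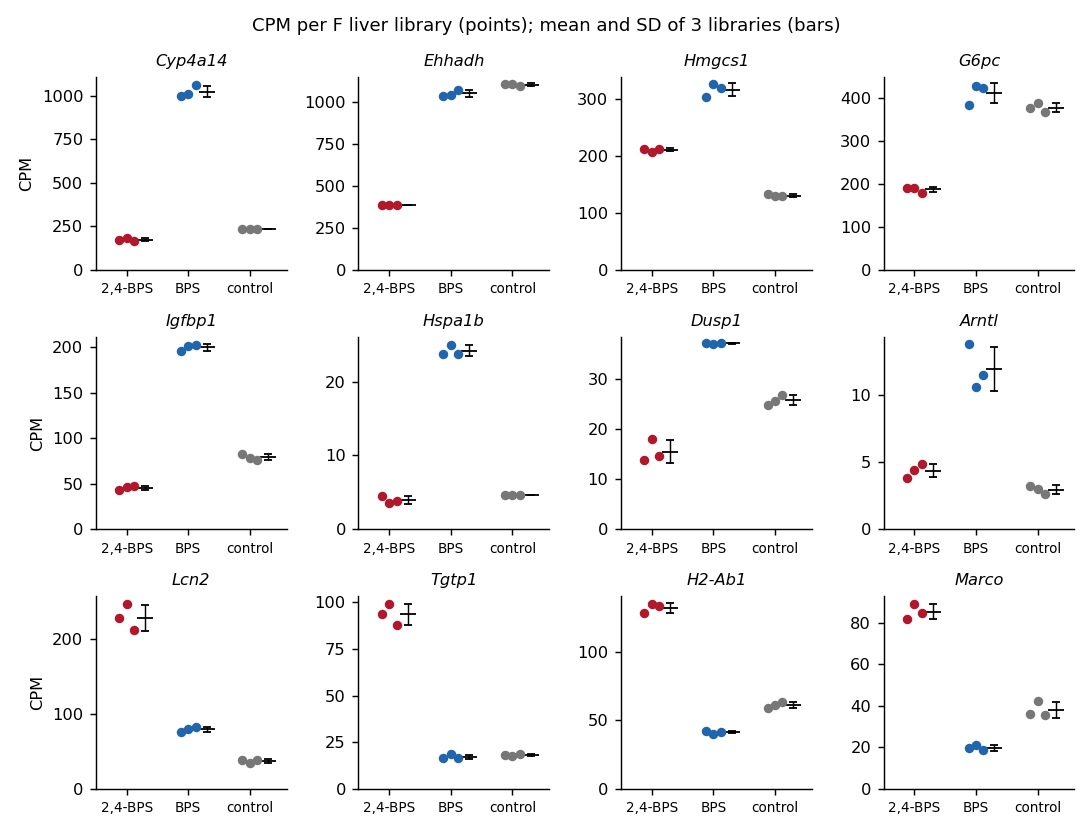
CPM of 12 genes in each F liver library on linear axes from 0, with points for libraries and bars for the mean and SD of 3. For all 12 genes, which were picked among called genes, the 2,4-BPS and BPS points do not overlap, as for Igfbp1 at 42.7 to 47.2 against 196 to 203 CPM. Over all tested genes, 4879 (35.2%) had no such overlap.

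Acute phase genes were higher with 2,4-BPS, 24 of 39 up and none down (median 0.40). Lcn2, the siderophore-binding lipocalin 2, had 228, 247 and 212 CPM in 2,4-BPS livers, against 76, 79.5 and 83.3 CPM in BPS livers and 38.4, 34.4 and 38.3 CPM in control livers. Both isomers thus exceeded control, and 2,4-BPS exceeded BPS 2.88-fold (1.53 ± 0.06, adjusted p = 5.11e-21). Saa1, a serum amyloid A gene with a near-identical neighbour, had 159, 179 and 155 CPM in 2,4-BPS livers, against 74.3, 75.8 and 83.8 CPM in BPS livers and 39.2 to 43 CPM in control livers (1.08 ± 0.07, adjusted p = 3.69e-14). Hamp, which encodes the iron hormone hepcidin, had 801 to 917 CPM in 2,4-BPS livers, against 451 to 468 CPM in BPS livers, with control livers between them at 699 to 701 CPM (0.90 ± 0.06). Orm3, an orosomucoid gene, rose by 1.26. The metallothionein genes Mt1 and Mt2, which bind zinc and copper, rose by 0.59 and 0.65.

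Complement and coagulation genes followed, with 21 of 39 higher and 1 lower (median 0.19), a count of 13 higher without replicate 2 of 2,4-BPS. C8a and C6, subunits of the membrane attack complex, rose by 0.80 and 0.59, and C4b, of the classical pathway, had 1879 to 2196 CPM in 2,4-BPS livers, against 1264 to 1437 CPM in BPS livers (0.57 ± 0.06, adjusted p = 1.28e-08). The member that fell was C9, the last component of that attack complex (−0.47 ± 0.06, adjusted p = 4.85e-08).

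Interferon-responsive genes split. Of 39 tested, 12 rose and 11 fell (median −0.01), and 7 fell when replicate 2 of 2,4-BPS or replicate 1 of BPS was left out. Those that rose included Tgtp1, Tgtp2, Igtp, Irgm2, Gbp2, Gbp3, Gbp5, Gbp7, Gbp9, Irf1 and Cxcl9, of which the Tgtp, Igtp, Irgm and Gbp genes encode interferon-inducible GTPases. Those that fell were Ifit1, Ifit3, Ifit3b, Isg15, Usp18, Oasl1, Xaf1, Ifih1, Irf7, Irf9 and Gbp6, of which Ifit1, Isg15 and Usp18 belong to the antiviral response to type I interferon. The other 16 were not called, and they included the GTPase genes Irgm1 and Ifi47 and the antiviral genes Rsad2, Oas1a and Oas3. Tgtp1 had 93.7, 98.9 and 87.7 CPM in 2,4-BPS livers, against 16.5, 18.4 and 16.4 CPM in BPS livers and 17.8 to 18.7 CPM in control livers. For this gene BPS livers overlapped with control, and 2,4-BPS livers stood 5.47-fold above BPS (2.45 ± 0.07, adjusted p = 1.83e-25). Ifit1, which binds viral RNA, had 14.7, 16.5 and 14.6 CPM in 2,4-BPS livers, against 32.6, 31.8 and 32.4 CPM in BPS livers and 15.3 to 17.4 CPM in control livers (−1.08 ± 0.08, adjusted p = 2.32e-12). Here BPS livers were the ones away from control. Tgtp2 rose by 2.16, and Irf1, a transcription factor of the interferon gamma response, by 0.79. Tgtp1 and Tgtp2 are near copies, and their reads may be shared.

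The start of Tgtp1 shows a DNA element found at most of the listed interferon genes that had a window. The RefSeq window of 250 bases before and 50 bases after the start (GRCm38.p6, chr11:48992197-48992496, minus strand) is printed with the match to TTTCNNTTT, searched on both strands, in capitals.
Tgtp1: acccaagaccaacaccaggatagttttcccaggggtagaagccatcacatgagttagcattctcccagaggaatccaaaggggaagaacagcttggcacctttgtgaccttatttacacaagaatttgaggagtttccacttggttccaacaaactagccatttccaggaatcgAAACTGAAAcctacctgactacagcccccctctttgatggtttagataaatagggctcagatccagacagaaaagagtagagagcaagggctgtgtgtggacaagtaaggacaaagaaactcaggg
The match begins 76 bases before the start, on the reverse strand. It was found in 25 of the 31 listed interferon genes that had a window (80.6%), against 9.94% of 11055 tested genes with a window. Both directions held it, with 8 of 10 windows of genes that rose and 7 of 9 of genes that fell, as well as 10 of 12 of genes that were not called. A match is a description of letters and not a measured binding site.

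Antigen presentation genes were higher with 2,4-BPS in 13 of 21 cases and lower in none (median 0.44, or 0.67 without replicate 3 of 2,4-BPS and 0.70 without replicate 3 of BPS). H2-Ab1, a chain of MHC class II, had 128, 135 and 133 CPM in 2,4-BPS livers, against 42.1, 40.3 and 41.5 CPM in BPS livers and 58.6, 61.1 and 63.5 CPM in control livers. The isomers stood on either side of control (1.68 ± 0.06, adjusted p = 5.11e-21). Cd74, the invariant chain that guides class II molecules, had 541, 531 and 554 CPM in 2,4-BPS livers, against 263, 260 and 235 CPM in BPS livers (1.10 ± 0.06, adjusted p = 4.21e-17). The class I genes H2-T23 and H2-D1 rose by 1.15 and 0.78, whereas H2-Q2, which is not on this list, fell as given above. Ciita, the master activator of class II genes, singled out after its values were seen, rose by 1.47 (adjusted p = 1.34e-09).

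Macrophage markers moved beside these immune genes. Of 26 macrophage and Kupffer cell markers, 23 were higher with 2,4-BPS and 1 lower (median 0.51), and their CPM summed to 2666 to 2841 in 2,4-BPS livers, against 1900 to 2000 in BPS livers and 1995 to 2063 in control livers. Marco, a scavenger receptor of Kupffer cells, had 81.9, 89.3 and 85 CPM in 2,4-BPS livers, against 19.5, 21 and 18.5 CPM in BPS livers and 35.6 to 42.4 CPM in control livers (2.12 ± 0.07, adjusted p = 2.6e-22). Csf1r, the receptor of the macrophage growth factor, rose by 0.73, Cybb, a subunit of the phagocyte oxidase, by 0.88, and Cd5l, a secreted macrophage protein, by 0.67. Clec4f, which defines Kupffer cells and was chosen with its values known, had 353 to 383 CPM in 2,4-BPS livers, against 284 to 314 CPM in BPS livers (0.30 ± 0.06, adjusted p = 0.000133). In whole liver, more cells of a type and more RNA per cell cannot be told apart. The part of macrophage content in the antigen presentation, interferon and complement counts was not tested, and the complement list shares C1qa, C1qb and C1qc with the markers.

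Other blood and tissue markers moved less evenly. Lymphocyte markers rose in 6 of 20 cases and fell in none, with sums of 63.6 to 67.7 CPM in 2,4-BPS livers, against 42.8 to 51.2 CPM in BPS and 53.1 to 65.8 CPM in control livers. Jchain, the joining chain of secreted antibodies, had 8.65, 8.08 and 7.58 CPM in 2,4-BPS livers, against 3.02, 2.41 and 2.49 CPM in BPS livers (1.61 ± 0.17, adjusted p = 2.54e-09), and the B cell receptor gene Cd79b rose by 1.58. Neutrophil markers rose in 4 of 13 cases, summing to 29.6 to 36.6 CPM in 2,4-BPS livers, against 20.5 to 23.6 CPM in BPS livers, both below the 40 to 51.5 CPM of control livers; 2 rose without replicate 1 of BPS. Mpo, myeloperoxidase, rose by 1.78. Stellate cell and matrix markers rose in 9 of 22 cases and fell in 1, and 5 rose without replicate 1 of 2,4-BPS. Colec10, a collectin of stellate cells, had 78 to 86.5 CPM in 2,4-BPS livers, against 51.3 to 51.7 CPM in BPS livers (0.65 ± 0.07). Sinusoidal endothelial markers rose in 6 of 21 cases, led by the scavenger receptor gene Stab1 (0.47 ± 0.07), and 18 of the 21 were within 0.5 of 0. Hepatocyte identity genes rose in 4 of 17 cases and fell in 3, with Foxa3, a liver transcription factor, down by 0.71; 2 rose without replicate 2 of 2,4-BPS.

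**Figure D4:**
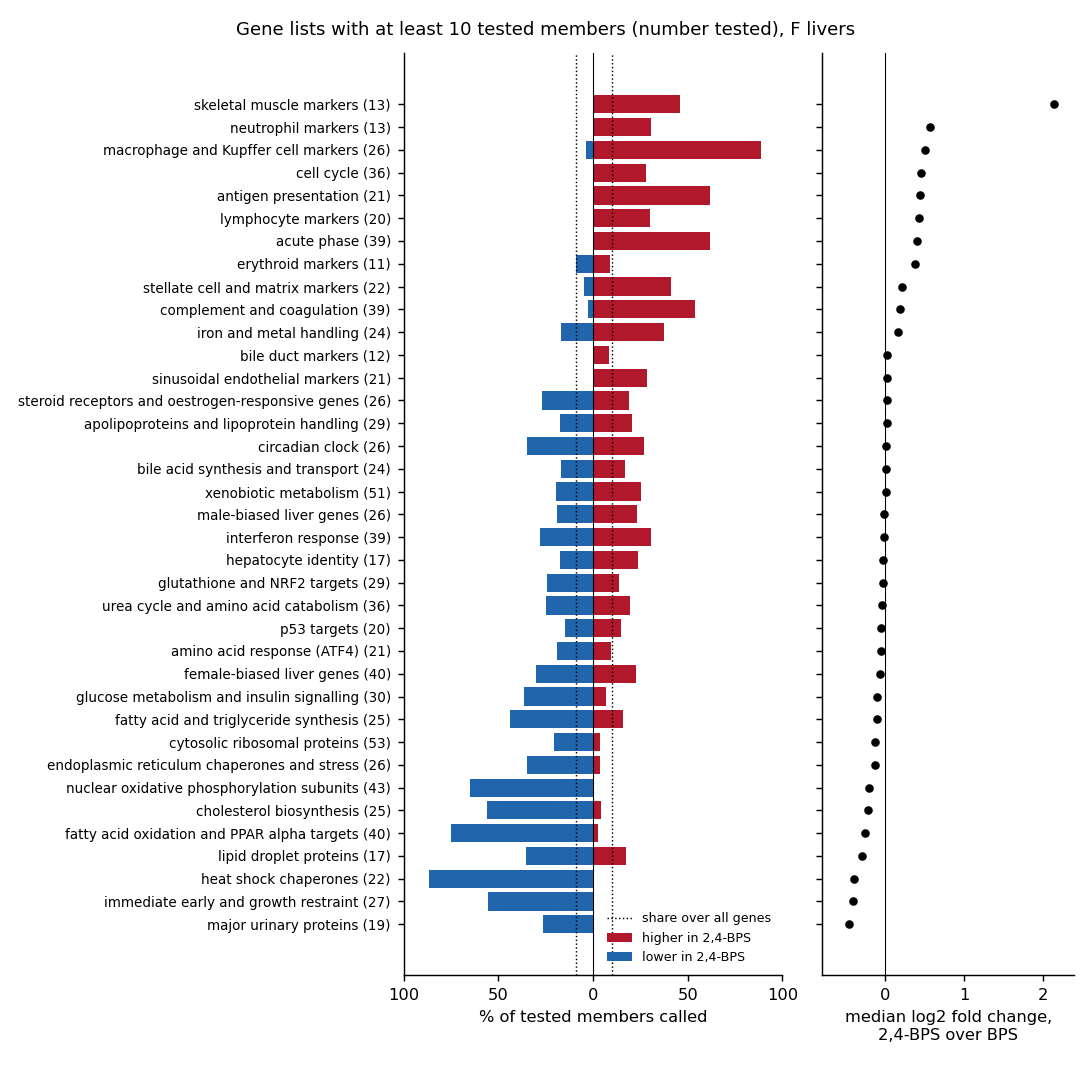
Share of tested members called higher (red, right) or lower (blue, left) in 2,4-BPS livers than in BPS livers for the 37 lists with at least 10 tested members, with dotted lines at the shares over all genes, 10.2% and 9.23%. The right panel gives the median log2 fold change of each list, from −0.46 for major urinary proteins to 2.14 for muscle markers, or 1.16 without replicate 1 of 2,4-BPS.

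Heat shock chaperone genes fell almost as a whole. Of 22 heat shock chaperone genes, 19 fell with 2,4-BPS relative to BPS and none rose (median −0.39). Hspa1b, an inducible HSP70 gene, had 4.5, 3.5 and 3.83 CPM in 2,4-BPS livers, against 23.8, 25 and 23.7 CPM in BPS livers and 4.66 to 4.7 CPM in control livers. The 2,4-BPS livers lay just under the control livers, and the BPS livers 6.12-fold above the 2,4-BPS livers (−2.61 ± 0.13, adjusted p = 2.88e-17). Hspa1a, its near-identical copy, whose reads may be shared with it, fell by 2.98. Hsph1, an HSP110 exchange factor of HSP70, had 64.4, 68.9 and 68 CPM in 2,4-BPS livers, against 124, 131 and 132 CPM in BPS livers and 49.8 to 56.2 CPM in control livers (−0.94 ± 0.06, adjusted p = 2.65e-15). The HSP40 cochaperone genes Dnajb4 and Dnajb1 fell by 0.90 and 0.91. Summed over the list, levels were 4268 to 4379 CPM in 2,4-BPS livers, against 5457 to 5533 CPM in BPS livers and 4332 to 4452 CPM in control livers.

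The Hspa1b window (RefSeq, GRCm38.p6, chr17:34959189-34959488, minus strand) is shown with its match to GAANNTTC in capitals. These letters are the core of the element through which heat shock factors act, and binding at the match was not measured.
Hspa1b: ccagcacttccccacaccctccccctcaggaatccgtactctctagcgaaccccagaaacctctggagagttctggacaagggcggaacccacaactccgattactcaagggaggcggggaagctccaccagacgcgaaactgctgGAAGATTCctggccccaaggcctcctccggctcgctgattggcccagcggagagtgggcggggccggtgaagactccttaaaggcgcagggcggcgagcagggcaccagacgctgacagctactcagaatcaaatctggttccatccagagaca
The match starts 104 bases before the transcription start. It reads the same on both strands and was found in 10 of 16 chaperone genes with a window (62.5%), against 7.18% of tested genes. Since 15 of the 16 genes with a window fell, nearly any subset of them would lie among the genes that fell, as those 10 do.

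Endoplasmic reticulum chaperones fell in 9 of 26 cases and rose in 1 (median −0.13). Creld2, a secreted stress protein of that compartment, had 35.6, 32.4 and 29.9 CPM in 2,4-BPS livers, against 53.6, 46.8 and 58 CPM in BPS livers and 24.4 to 27.4 CPM in control livers (−0.70 ± 0.08, adjusted p = 1.65e-08). Dnajb9, a cochaperone of BiP, fell by 0.61, and Herpud1, of the degradation machinery, by 0.47. For each of these genes the 2,4-BPS livers lay between control and BPS.

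Immediate early and growth restraint genes fell in 15 of 27 cases and rose in none (median −0.40). Dusp1, a phosphatase that ends MAP kinase signals, had 13.7, 18 and 14.6 CPM in 2,4-BPS livers, against 37.1, 36.9 and 37.1 CPM in BPS livers, on either side of control livers at 24.7 to 26.8 CPM (−1.26 ± 0.09, adjusted p = 8.33e-14). Cdkn1a, which encodes the cell cycle inhibitor p21, had 15.4, 13.1 and 12.6 CPM in 2,4-BPS livers, against 31.8, 28.3 and 27.5 CPM in BPS livers and 2.69 to 3.85 CPM in control livers. Both isomers were far above control, and 2,4-BPS was the lower of them (−1.09 ± 0.10, adjusted p = 2.29e-10). Gadd45g and Jun fell by 1.21 and 1.00. The p53 target list showed 3 up and 3 down of 20. Cell cycle genes rose in 10 of 36 cases and fell in none (median 0.45), with 6 higher without replicate 3 of 2,4-BPS and 4 without replicate 2 of BPS. Ccnd1, cyclin D1, had 135 to 143 CPM in 2,4-BPS livers, as in controls at 133 to 138 CPM, against 88.5 to 103 CPM in BPS livers (0.56 ± 0.06, adjusted p = 9.7e-09). Tk1, a thymidine kinase of dividing cells, rose by 0.62. Mki67, which marks the same cells, had 10.1, 8.23 and 7.94 CPM in 2,4-BPS livers, against 5.05, 6.37 and 5.14 CPM in BPS livers (0.67 ± 0.16, adjusted p = 0.00211).

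Circadian genes moved both ways. Of 26 tested, 7 rose and 9 fell (median 0.01). Arntl, the activator also called Bmal1, had 3.85, 4.43 and 4.86 CPM in 2,4-BPS livers, against 13.8, 10.6 and 11.5 CPM in BPS livers and 2.62 to 3.26 CPM in control livers (−1.45 ± 0.13, adjusted p = 8.72e-11). Npas2, its partner in place of Clock, had 0.0299 to 0.436 CPM in 2,4-BPS livers, against 1.97 to 2.65 CPM in BPS livers (−3.43 ± 0.55). Noct, a rhythmic phosphatase also called nocturnin, fell by 1.30 and the repressor gene Bhlhe40 by 0.55, whereas Cry2, another repressor, rose by 0.51. Dbp, an output gene whose level swings widely over the day, had 60.8, 63.5 and 65.8 CPM in 2,4-BPS livers, against 67.4, 76.8 and 65.9 CPM in BPS livers, and was not called (−0.14, interval −0.28 to −0.01, adjusted p = 0.134). The hour of sampling is not given in the sources used here.

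Drug clearance genes moved in both directions, 13 of 51 up and 10 down (median 0.01), and 36 of the 51 were within 0.5 of 0. Cyp2b10, the standard CAR target, had 44.6, 42.4 and 38.2 CPM in 2,4-BPS livers, against 19.3, 21 and 23.3 CPM in BPS livers and 26.9 to 30.6 CPM in control livers. The isomers again flanked control (0.98 ± 0.09, adjusted p = 4.12e-10). Cyp3a59 and Cyp3a13, of the PXR-regulated Cyp3a family, rose by 1.24 and 0.67, and Nr1i2, the PXR gene, by 0.41. Cyp3a11, the panel gene of that family, rose by only 0.19 (adjusted p = 0.0316). Its call was lost without replicate 1 or replicate 2 of either group, at 0.12 to 0.19. Sult3a1, a sulfotransferase gene biased to females, fell by 0.48. Members of the Cyp2b, Cyp3a and Sult3a families may share reads. Of 29 glutathione and NRF2 genes, 4 rose and 7 fell, with Osgin1, an oxidative stress gene, up by 0.73, Hmox1, haem oxygenase, up by 0.63 and Gsta2, a glutathione transferase, down by 0.98. Bile acid genes were split evenly, 4 up and 4 down of 24. Cyp7a1, the enzyme that limits bile acid production, had 376, 370 and 353 CPM in 2,4-BPS livers, against 446, 511 and 528 CPM in BPS livers and 303 to 310 CPM in control livers (−0.43 ± 0.06, adjusted p = 1.06e-06). Cyp46a1, a cholesterol 24-hydroxylase, fell by 0.38 and Nr0b2, the repressor SHP, by 0.62.

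Hormone receptor genes were of interest because bisphenols are studied as oestrogen mimics. Of 26 tested genes for steroid receptors and their responses, 5 rose and 7 fell (median 0.03). Esr1, oestrogen receptor alpha, had 57.5, 60.6 and 52.3 CPM in 2,4-BPS livers, against 36, 35.9 and 36.3 CPM in BPS livers and 20 to 24.1 CPM in control livers. Its level was thus above control with both isomers and highest with 2,4-BPS (0.66 ± 0.13, adjusted p = 0.00114). Female-biased liver genes rose in 9 of 40 cases and fell in 12, and male-biased genes rose in 6 of 26 and fell in 5, or in 3 without replicate 3 of either group. Cyp17a1, a steroid hydroxylase, had 17.5, 18.1 and 18.7 CPM in 2,4-BPS livers, against 56.6, 58 and 70.1 CPM in BPS livers and 50.3 to 53.9 CPM in control livers (−1.77 ± 0.08, adjusted p = 6.31e-19). Sult3a2, a sulfotransferase gene, fell by 0.86. Vldlr, the VLDL receptor gene, had 2.53 to 3.2 CPM in 2,4-BPS livers, against 9.78 to 10.6 CPM in BPS livers and 16.6 to 17.6 CPM in control livers (−1.89 ± 0.13). Socs2, a feedback inhibitor of growth hormone signals, had 32.9 to 36.3 CPM in 2,4-BPS livers, against 54.6 to 59.2 CPM in BPS livers and 21 to 23.9 CPM in control livers (−0.71 ± 0.08). Of 19 major urinary protein genes, whose copies share reads, 5 fell and none rose, and 3 fell without replicate 1 or replicate 2 of 2,4-BPS.

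Set against the same 3 control livers, 2681 genes were called with 2,4-BPS (19.3%) and 2333 with BPS (16.8%). Because both comparisons use those livers, only their values for single genes are given side by side. Genes at which BPS alone differed from control by more than 1 on the log2 scale included Cyp4a14 (−0.44 for 2,4-BPS and 2.13 for BPS over control) and Hspa1b (−0.24 and 2.37). Genes at which 2,4-BPS alone did so included Ehhadh (−1.52 and −0.07), G6pc (−1.01 and 0.13), Tgtp1 (2.36 and −0.09) and Cyp17a1 (−1.53 and 0.23). On opposite sides of control were Igfbp1 (−0.80 and 1.34), H2-Ab1 (1.11 and −0.56) and Marco (1.16 and −0.95). On the same side, to different degrees, were Lcn2 (2.63 and 1.10) and Hmgcs1 (0.69 and 1.28). These genes were grouped after their values were seen.

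In male offspring the same isomers were compared in libraries that share no animal with the female pair. Whether male and female livers of an exposure share dams is not given, and the test of the sex difference treats them as independent. A fit of all 30 libraries, 14131 genes, gave the male contrast and the female minus male difference, and its CPM use that fit's TMM factors. Libraries labelled male control, whose Y-linked level of 84.7 to 95.3 CPM was below the 131 to 169 CPM of the other male libraries, enter that fit's estimate of spread but neither contrast. In males 3597 genes were called (25.5%), 1785 higher and 1812 lower with 2,4-BPS. Of these, 1168 were also called in females by this fit, 692 in the same direction (25.3% of 2731 female calls and 19.2% of male calls) and 476 in the opposite one. The difference between sexes was itself called for 2871 genes (20.3%), 1471 with a higher fold change in females and 1400 with a lower one.

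The omega-hydroxylase genes Cyp4a14 and Cyp4a10 were called lower in both sexes. Cyp4a14 had 196, 231 and 205 CPM in male 2,4-BPS livers, against 1335, 1252 and 1285 CPM in male BPS livers (−2.61 ± 0.06, adjusted p = 9.77e-41), and the female minus male difference was 0.05 ± 0.08 (adjusted p = 0.703). Cyp4a10 fell by 1.36 in males, with a difference of 0.16 ± 0.14 (adjusted p = 0.504). Of 40 fatty acid oxidation genes, 21 fell and 6 rose in males, and the sex difference was called for 14, lower in females for 11 of them. Ehhadh was among these, with a difference of −0.90 (adjusted p = 2.94e-18). G6pc and Cyp17a1 fell in both sexes to different degrees. G6pc fell by 0.70 in males and had a difference of −0.44 ± 0.07 (adjusted p = 3.48e-06), and Cyp17a1 fell by 2.50 in males and had a difference of 0.74 ± 0.16 (adjusted p = 0.000298).

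Stress genes ran the opposite way in males. Of 22 heat shock chaperone genes 15 rose and 2 fell there, of 26 endoplasmic reticulum genes 21 rose, and of 27 immediate early genes 12 rose and 2 fell. The difference between sexes was called with a lower value in females for 17, 19 and 16 of them. Hspa1b had 92.4, 98.7 and 101 CPM in male 2,4-BPS livers, against 56, 52.9 and 43.1 CPM in male BPS livers (0.94 ± 0.08, adjusted p = 3.18e-14), a difference of −3.55 ± 0.14 (adjusted p = 9.51e-31). Creld2 had 274, 298 and 289 CPM in male 2,4-BPS livers, against 108, 104 and 101 CPM in male BPS livers (1.46 ± 0.07), a difference of −2.15 ± 0.10 (adjusted p = 1.36e-25). Scd1 had 689, 649 and 662 CPM in male 2,4-BPS livers, against 195, 210 and 204 CPM in male BPS livers (1.72 ± 0.05), a difference of −2.37 ± 0.07 (adjusted p = 4.37e-36). Cholesterol genes rose in 16 of 25 cases in males and fell in 2.

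Immune genes differed as well. In males 1 of 26 macrophage markers rose and 8 fell, and the sex difference was called for 22 of them, each higher in females. Interferon genes fell in 22 of 39 cases in males and rose in 4. Lcn2 had 26.9, 22.8 and 20.1 CPM in male 2,4-BPS livers, against 87.3, 88.7 and 54.4 CPM in male BPS livers (−1.72 ± 0.14, adjusted p = 2.07e-09), a difference of 3.25 ± 0.19 (adjusted p = 1.06e-11). Tgtp1 had 4.24, 4.32 and 4.75 CPM in male 2,4-BPS livers, against 9.34, 9.49 and 8.45 CPM in male BPS livers (−1.03 ± 0.12), a difference of 3.49 ± 0.14 (adjusted p = 2.66e-27). Arntl rose by 1.31 in males, where 2,4-BPS livers had 16.4 to 18.9 CPM, against 5.76 to 8.83 CPM in BPS livers.

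The largest female minus male differences that met the rule for naming were positive for Cyp4a12b, Igsf23, Ppbp, Saa3 and Ifi27l2b. They were negative for Psmc3ip, Npas2, Hspa1a, Slc15a2 and Ntrk2. The sign does not tell which sex changed more. Saa3 was not called in females (0.23 ± 0.20, adjusted p = 0.478) and fell in males (−3.46 ± 0.21). Hspa1a and Npas2 changed more in females (−2.97 and −3.43) than in males (1.36 and 1.84). Slc15a2 changed more in males (2.72, against −1.36 in females). Cyp4a12b had 19.4, 22 and 22.1 CPM in male 2,4-BPS livers, against 89.9, 93.5 and 76.3 CPM in male BPS livers (−2.03 ± 0.10), so that the isomers ranked in opposite order in the sexes. Psmc3ip, a recombination cofactor gene, had 1.92, 2.77 and 2.63 CPM in male 2,4-BPS livers, against 0.29, 0.125 and 0.195 CPM in male BPS livers (3.56 ± 0.46). In females it had 0, 0.058 and 0.271 CPM with 2,4-BPS, against 1.78, 1.66 and 1.63 CPM with BPS. Ntrk2, a neurotrophin receptor gene, had 2.48, 4.66 and 2.21 CPM in male 2,4-BPS livers, against 1.06, 0.689 and 0.78 CPM in male BPS livers (1.88 ± 0.27).

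**Figure D5:**
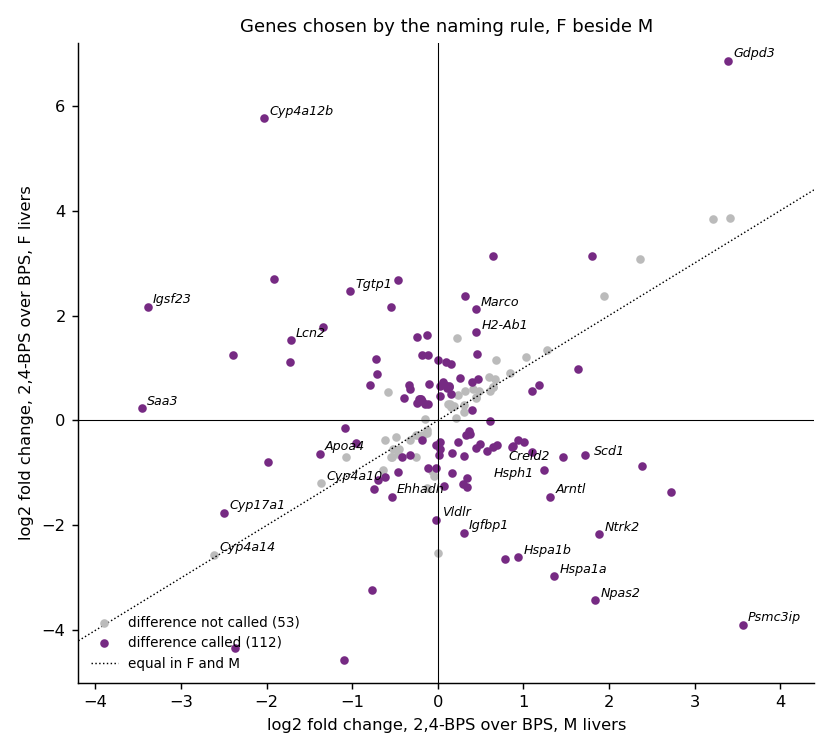
Log2 fold changes, 2,4-BPS over BPS, in F livers (y axis) and M livers (x axis) for 165 genes chosen by the naming rule, purple where the female minus male difference was called (112 genes) and grey where it was not. Over all genes the difference was called for 20.3%, and the naming rule chose some genes for that difference. Cyp4a14 lies on the dotted line of equality at −2.56 in F and −2.61 in M livers, while Hspa1b and Scd1 lie at lower right and Lcn2 and Tgtp1 at upper left.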

How the data were processed

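Liver total RNA was sequenced from 30 mouse offspring, 3 in each of 10 groups. The authors deposited counts of reads per gene for 17990 genes, made with HISAT2 and HTSeq per the submitters' processing notes, which also list R 3.2.0 and DESeq2; neither the genome build nor the strandedness is stated in the labels or notes. The authors also deposited FPKM values, which equal counts scaled by length and total to within a relative 3.99e-08 over 10974 genes and were used only for that check. Female contrasts came from 1 fit of the 15 female libraries and the sex difference from 1 fit of all 30, with edgeR 4.0.16 (limma 3.58.1, R 4.3.3), TMM scaling, filterByExpr and robust quasi-likelihood tests, tested on simulated data. Adjusted p at or under 0.05 was a call. DESeq2 1.42.0 served as an alternative, and figures used matplotlib 3.10.9. Intervals are Wald intervals at 95%. Livers within a group differed by more than sampling noise, with a mean chi-square per gene of 5.55 to 23.9 over pairs of livers. The median per gene was lower, 1.89 to 4.92. The groups, gene lists (40) and panel were chosen with earlier results of these data known. Named genes were the 10 largest called changes each way averaging 1 CPM or more, without overlap between the isomers, up to 4 called members per list by p, the panel of 24, the 5 largest sex differences each way, genes present in 1 group, and defining markers of other cell types. Predicted models, clones and pseudogenes were left out of the ranks. Results for some genes are not reported here.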

Additional observations from a re-analysis of the deposited data

Results flagged for a closer look

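For 90 of the 110 genes named above and tested in both sexes, leaving aside Trim12a, LOC118568152 and Cyp3a11, the 2,4-BPS over BPS fold change differed between female and male offspring by edgeR's quasi-likelihood test of the difference itself (adjusted p at or under 0.05 over all genes). Cyp3a11 had a difference of −0.20 by the same test (adjusted p = 0.0415), or −0.15 without female BPS replicate 3, where the call was lost. Over all 14131 genes, 20.3% were called for this difference. Many of the named genes were chosen for a call in females or for their sex difference, so the 2 shares are not comparable. Values are female minus male on the log2 scale, and 36 of the 90 genes were called in both sexes with opposite signs. Trim12a was also called (adjusted p = 4.73e-07), but it averaged 0 CPM in male 2,4-BPS and 0.0538 CPM in male BPS livers, so no difference is given for it. Chaperone and endoplasmic reticulum genes had differences of −4.33 for Hspa1a, −3.55 for Hspa1b, −2.18 for Hsph1, −0.88 for Dnajb4, −0.78 for Dnajb1, −2.15 for Creld2, −1.71 for Dnajb9 and −1.16 for Herpud1. Immediate early, cell cycle and clock genes had differences of −1.60 for Dusp1, −1.49 for Gadd45g, −1.42 for Cdkn1a, −1.17 for Jun, −0.54 for Ccnd1, 0.52 for Tk1, 1.46 for Mki67, −2.76 for Arntl, −5.27 for Npas2, −0.55 for Noct, 0.37 for Cry2 and 0.95 for Dbp. Lipid and sterol genes had differences of −0.90 for Ehhadh, −0.67 for Plin2, −2.37 for Scd1, −0.57 for Elovl5, −1.17 for Hmgcs1, −0.98 for Sqle, −0.93 for Msmo1, 0.75 for Apoa4, 1.17 for Angptl8, 0.80 for Lpl, 0.60 for Pnpla2, 7.79 for Cyp4a12b and 3.47 for Gdpd3. Glucose, amino acid and bile acid genes had differences of −2.44 for Igfbp1, −0.44 for G6pc, −1.31 for Ppp1r3c, −0.61 for Pck1, −0.34 for Oat, −0.64 for Tat, 0.59 for Prodh, 0.82 for Cps1, 0.53 for Cyp7a1, −1.32 for Cyp46a1 and −0.79 for Nr0b2. Plasma protein and metal genes had differences of 3.25 for Lcn2, 0.93 for Saa1, 3.69 for Saa3, 0.81 for Orm3, 0.91 for Mt1, 0.52 for Mt2, 0.54 for C8a and −0.45 for C9. Interferon, antigen presentation and immune cell genes had differences of 3.49 for Tgtp1, 2.71 for Tgtp2, 3.63 for Ifi27l2b, 1.23 for H2-Ab1, 1.02 for Cd74, 1.15 for H2-T23, −2.46 for H2-Q2, 1.68 for Marco, 0.67 for Csf1r, 1.60 for Cybb, 1.01 for Cd5l, 3.12 for Mpo, 1.74 for Jchain and 4.61 for Ppbp. Drug clearance and hormone-related genes had differences of −0.65 for Cyp2b10, −0.51 for Cyp3a13, 1.44 for Cyp3a59, −0.61 for Cyp1a2, 0.62 for Nr1i2, 0.33 for Osgin1, 0.50 for Hmox1, −1.36 for Sult3a1, 0.74 for Cyp17a1 and −1.87 for Vldlr. Other genes had differences of 0.63 for Colec10, 5.56 for Igsf23, −4.05 for Ntrk2, −7.46 for Psmc3ip, 1.37 for Rps18, 0.42 for Rpl30 and −4.08 for Slc15a2. Male levels were low for some of these genes. Mpo averaged 0.0827 CPM in male 2,4-BPS and 0.213 CPM in male BPS livers, and Sult3a1 0.593 and 0.321 CPM.

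A further 7 genes among the 90 lost the call when single libraries were left out. The difference of −3.46 for Cfhr3 was −0.88 without male 2,4-BPS replicate 3 (adjusted p = 0.853). In males Cfhr3 averaged only 0.11 CPM in 2,4-BPS and 0.243 CPM in BPS livers. That of 1.82 for Cd79b was 1.34 without male 2,4-BPS replicate 2 and 1.49 without male BPS replicate 3. Sult3a2 had −3.24, or −3.04 without male 2,4-BPS replicate 2, −2.81 without male BPS replicate 1 and −2.79 without male BPS replicate 2. Sult3a2 was nearly absent in males, averaging 0.0716 CPM in 2,4-BPS and 0.0108 CPM in BPS livers, and was not called there (adjusted p = 0.0928). Foxa3 had −0.29, or −0.23 without male 2,4-BPS replicate 2, and Irf1 had 0.32, or 0.24 without male 2,4-BPS replicate 1. Gsta2 had −0.52, or −0.48 without female 2,4-BPS replicate 2 or 3, −0.43 without female BPS replicate 3 and −0.50 without male BPS replicate 3. Ifit1 had −0.46 (adjusted p = 0.0492), and the call was lost without any 1 of 9 libraries, at −0.48 to −0.42, all but female 2,4-BPS replicate 2, male 2,4-BPS replicate 2 and male BPS replicate 1.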

How the results depend on the processing

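Counts of called genes in females stayed within 1.5 times under other scaling, filtering, library sets and DESeq2, from 1302 to 1523 higher and from 1234 to 1482 lower. A test against a minimum log2 fold change of 1 gave 29 higher and 33 lower. Leaving out each liver in turn gave 1106 to 1200 higher and 943 to 1132 lower, and for the sex difference 1231 to 1303 higher and 1327 to 1458 lower. No female call changed sign under any of these settings. With the replicate number as a block, 1370 genes were higher and 1239 lower; the sex difference gave 1464 and 1372, and among genes named here its call was lost for Ifit1 (adjusted p = 0.052). Numbers did not pair the livers, as deviations of same-numbered 2,4-BPS and BPS livers correlated at −0.04, 0.06 and −0.17. Leaving out single livers turned the sign of values that were not called, with ranges of −0.06 to 0.02 for Cyp1a2, −0.03 to 0.05 for Nr1i3, −0.00 to 0.08 for Ppara and −0.01 to 0.11 for the sex difference of Cyp4a14. Scaling by library totals moved the higher share of calls to 49.8%, against 52.6%, and the median of all genes to −0.006. Depth limits only the lowest genes, where 3 counts over a group are 0.0283 CPM for 2,4-BPS and 0.0301 CPM for BPS. With 3 livers a group, differences below the intervals given cannot be resolved. The cause of the changes with setting was not tested.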
